A study of Homo sapiens with 6 samples.

Results

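The genes described here are the inhibitors and cyclins that set the passage from G1 into S phase, together with the G1 kinase CDK6, in NB4 cells exposed to maltonis. They are the CIP/KIP inhibitors CDKN1A and CDKN1B, the INK4 inhibitors CDKN2C and CDKN2D, the D-type cyclins CCND1, CCND2 and CCND3, the E-type cyclins CCNE1 and CCNE2, and CDK6. The 10 genes were chosen by symbol from the 23368 symbols of the count tables with earlier results of the same contrast known, so their changes are given as a description, without a test. NB4 is a cell line established from acute promyelocytic leukemia. Maltonis is a hydroxypyrone made by synthesis from maltol. Each group holds 3 libraries, described as biological replicates, from cells left not treated (n.t.) or kept for 24 h with maltonis at 10 µM. Both groups are cultures of a single line at a single dose and time, without an added agent in the n.t. cells.

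D-type cyclins bind CDK4 and CDK6, and these kinases begin the phosphorylation of the retinoblastoma protein, which releases E2F transcription factors. E-type cyclins then activate CDK2 and complete the step, after which genes of DNA replication are transcribed. INK4 proteins bind CDK4 and CDK6 and keep the D-type cyclins away from them, whereas CIP/KIP proteins bind whole cyclin-CDK complexes and block CDK2 in particular. In myeloid cells the balance between these groups accompanies the exit from the cycle during maturation.

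Library totals ranged from 18492154 to 38205483 counts. A floor of 3 counts was worth 0.0828 to 0.160 CPM (counts scaled to library size by the TMM factors) and covers counting error only. All 10 genes passed the filter on low counts, with between 41 counts, for CDKN1A in maltonis-treated replicate 1, and 33240 counts, for CCND2 in n.t. replicate 3. The promyelocyte genes all had counts in every library, from MPO at 14608 CPM to ELANE, near the floor at 0.129 CPM, in n.t. cells. By contrast, MS4A1 of B cells, HBB and HBA1 of red cells, and KRT5 and CDH1 of epithelium had 0 counts in every library. Other markers of these lists, named after their values were seen, were detected in n.t. cells, CD3D at 43.7 CPM, CD79B at 21.0, EPCAM at 17.1 and GATA1 at 3.29 CPM, and all were lower after maltonis, at 15.3, 10.1, 11.2 and 0.908 CPM. PAX5 of B cells was higher, at 0.149 and 0.768 CPM. Summed levels in the 6 libraries were 1.46 to 4.72 CPM for 7 erythroid markers and 10.9 to 29.2 CPM for 5 B cell markers, lower in every maltonis-treated library, as for 5 T cell markers (18.2 to 52.4 CPM) and 4 epithelial markers (10.3 to 17.6 CPM). The 5 stromal markers summed to between 0.0355 and 1.29 CPM, with overlapping groups. The part of these markers in the results was not tested. In bulk RNA a change of the RNA per cell cannot be told apart from a change in the share of cells that hold it.

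In TMM-scaled CPM, RNA of 8 of the 10 genes was lower in every maltonis-treated library than in every n.t. library. CDKN2D and CCNE2 were higher in the same way. CDKN1A, CCND1 and CCND2 lost the most, and CDKN2D was the member with the largest increase. In the fit over 13209 genes, 9 members passed the threshold of an FDR under 0.01, 7 of them lower and 2 higher, beside 64.0% of all genes tested in either direction, 32.1% lower and 31.9% higher. With a change of over 2.5-fold as well, the study's size limit, 4 members remained, 3 lower and 1 higher, beside 20.3% of all genes. The study also required over 10 RPKM (reads scaled to gene length and library size), a limit not applied here. CDKN1A, 1 of the 3 lower members, was at 8.80 RPKM in n.t. cells. The groups did not overlap in any of the 10 members, beside 76.6% of all genes. Because the choice of the members used this contrast, nothing is read from these counts. The median log2 fold change was -0.78 over the members and 0.01 over all genes tested, and the median size of the change was 0.99 and 0.59. Scaling by total counts alone moved the median of all genes from 0.01 to 0.13. In place of 4213 genes higher and 4239 lower, it called 4902 and 3652, and upper-quartile scaling called 4722 and 3820.

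**Figure D1:**
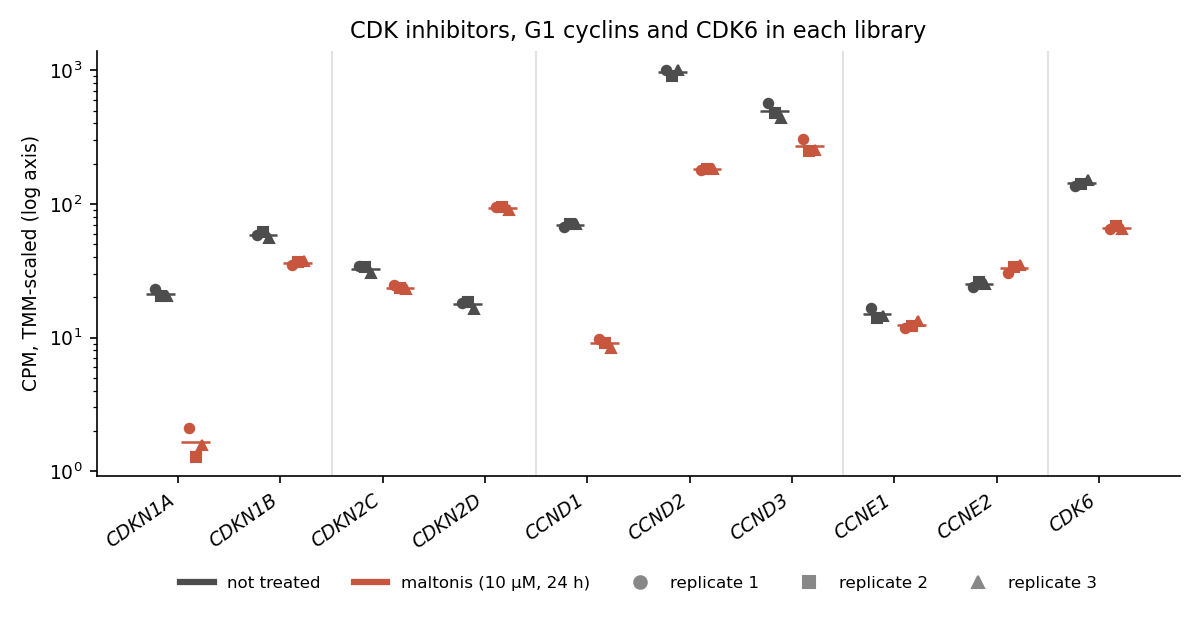
Level of each gene in each library, in TMM-scaled CPM on a log axis, for n.t. (grey) and maltonis-treated (red) NB4 cells, with a marker shape per replicate and a short line at the mean of the 3 libraries. CDKN1A drops from about 21.3 to 1.65 CPM and CDKN2D climbs from 17.7 to 93.2 CPM, while the CCNE1 groups lie close together.

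**Figure D2:**
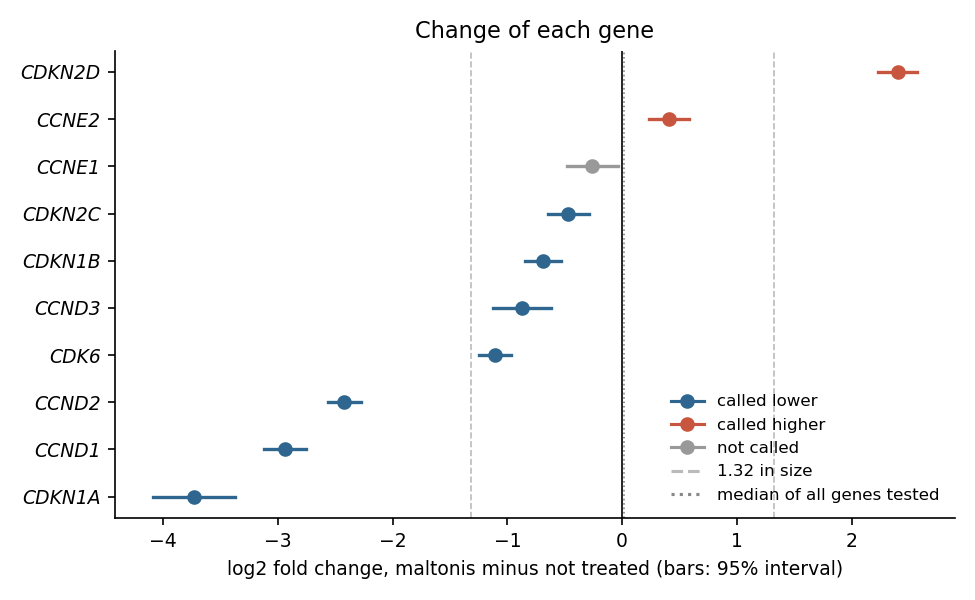
Fitted log2 fold change of each gene, maltonis-treated minus n.t., with its 95% interval, ordered by size (dashed lines at a 2.5-fold change, dotted line at the median of all genes tested). CDKN1A lies lowest at -3.73, CDKN2D highest at 2.40, and CCNE1 (grey) nearest to 0.

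The promoter windows of CDKN1A and CDKN2D are shown because these inhibitors lay at opposite ends of the changes. Each is the 250 bases before an annotated start in RefSeq on GRCh38.p14, written 5′ to 3′ in the direction of the gene. Capitals mark the GC box (GGGCGG) and the CCAAT box (CCAAT) on either strand. CDKN1A lies on the plus strand at chr6:36678464-36678713 and CDKN2D on the minus strand at chr19:10568980-10569229.
CDKN1A: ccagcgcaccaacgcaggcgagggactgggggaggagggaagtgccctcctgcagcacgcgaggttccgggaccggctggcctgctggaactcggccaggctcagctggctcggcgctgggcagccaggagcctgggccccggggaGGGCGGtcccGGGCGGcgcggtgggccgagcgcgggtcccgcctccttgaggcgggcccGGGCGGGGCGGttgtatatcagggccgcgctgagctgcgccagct
CDKN2D: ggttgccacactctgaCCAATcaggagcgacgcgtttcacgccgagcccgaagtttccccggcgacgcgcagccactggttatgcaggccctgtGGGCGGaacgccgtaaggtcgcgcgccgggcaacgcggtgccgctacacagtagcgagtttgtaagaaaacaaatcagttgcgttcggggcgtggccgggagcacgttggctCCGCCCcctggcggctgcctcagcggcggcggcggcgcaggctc

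The CDKN1A window held 4 GC boxes, which began 104, 94, 45 and 40 bases before the start, the last 2 of them sharing a base, and no CCAAT box. Its GC content was 76.4%. The CDKN2D window held 2 GC boxes, at 156 and 44 bases, and a CCAAT box at 234 bases, with a GC content of 67.6%. The search covered 12 windows of 7 members and left out CCND1, CCND2 and CCNE2. Each window was also searched on both strands for the E-box (CACGTG), E2F (TTTCGCGC or TTTGGCGC), CRE (TGACGTCA), AP-1 (TGACTCA), ISRE core (GAAANNGAAA), GAS (TTCNNNGAA) and core promoter (TATAAA) motifs. A GC box was in 9 of the 12 windows and in 42.6% of all 35116 windows, a CCAAT box in 5 of 12 and 32% of all, and an E-box in 2 of 12, both before CDKN2C starts, and 6.34% of all. None of the 12 windows held the other motifs, which were in 0.968% (E2F), 1.65% (CRE), 4.2% (AP-1), 3.02% (ISRE core), 6.57% (GAS) and 10.7% (core promoter) of all windows. These letters are a description of the windows and not of bound sites.

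CDKN1A, which encodes p21, a CIP/KIP inhibitor known for its induction after DNA damage, had 431, 741 and 679 counts in n.t. replicates 1, 2 and 3, and 41, 43 and 44 counts in the maltonis-treated replicates. These counts correspond to 23.0, 20.4 and 20.5 CPM in n.t. cells and to 2.12, 1.28 and 1.56 CPM in treated cells. Every treated library thus lay far under every n.t. library, with the highest treated value in replicate 1. The level fell from 21.3 ± 1.44 to 1.65 ± 0.425 CPM (SD, n = 3), with 7.55% of the n.t. level remaining (log2 fold change -3.73, SE 0.156). It held rank 105 of the 13209 genes, counted from the most negative fold change.

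CDKN1B encodes p27, the CIP/KIP inhibitor that accumulates in resting cells. It was measured at 58.5, 61.4 and 56.0 CPM in n.t. replicates 1, 2 and 3 and at 34.8, 36.5 and 37.7 CPM in the treated ones. The groups were well apart, and the spread within each was small, with a coefficient of variation of 4.59% in n.t. and 3.93% in treated cells. The log2 fold change was -0.69 (SE 0.0676), which leaves 62.0% of the n.t. level. Per gene length, the sum of CDKN1A and CDKN1B fell from 30.9 ± 1.15 to 14.4 ± 0.430 RPKM (reads scaled to gene length and library size, SD, n = 3). The part of CDKN1A in it fell from 28.5% to 4.78%. CDKN1C, described below among the other CDK inhibitors, is not in this sum.

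CDKN2D encodes p19INK4d, an inhibitor of CDK4 and CDK6, and its RNA moved the opposite way. Its counts were 343, 666 and 545 in n.t. replicates 1, 2 and 3, and 1837, 3187 and 2531 in the treated ones. They correspond to 18.3, 18.4 and 16.4 CPM before and 94.8, 95.0 and 89.8 CPM after treatment. Replicates agreed closely and the groups did not approach each other. The mean rose from 17.7 ± 1.09 to 93.2 ± 2.95 CPM (SD, n = 3), which is 5.27-fold (log2 fold change 2.40, SE 0.0726) and rank 454 of the 13209 genes, counted from the largest increase. Per length, CDKN2D moved from the 56.8th to the 91.1st percentile of the 11548 genes with a length.

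CDKN2C encodes p18INK4c, the other INK4 inhibitor detected here, and was at 34.3, 33.7 and 30.2 CPM in n.t. replicates 1, 2 and 3 and at 24.7, 23.3 and 23.0 CPM in the treated ones. All treated libraries lay under all n.t. libraries by a smaller margin than for the genes above. CDKN2C had a log2 fold change of -0.47 (SE 0.0774), with 72.3% of the n.t. level remaining. The 2 INK4 genes were nearly equal per length in n.t. cells, where CDKN2C gave 51.3% of their sum, and in treated cells CDKN2D gave 87.4% of it. The summed INK4 level rose from 25.5 ± 1.66 to 75.0 ± 2.30 RPKM (SD, n = 3).

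CCND2 and CCND3, the cyclins that carry most D-type cyclin RNA of blood cells, had the highest CPM of the 10 genes in n.t. cells. CCND2 was at 1004, 904 and 1002 CPM in n.t. replicates 1, 2 and 3 and at 180, 181 and 182 CPM in the treated ones. The treated libraries were nearly identical, with a coefficient of variation of 0.616%, and lay under each n.t. library by several fold. For CCND2 the fit gave a log2 fold change of -2.42 (SE 0.0635), which leaves 18.7% of the n.t. level.

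CCND3 was at 565, 479 and 442 CPM in n.t. replicates 1, 2 and 3 and at 307, 251 and 254 CPM in the treated ones. Replicate 1 was the highest library of each group, and the highest treated value still lay under the lowest n.t. value. Its log2 fold change was -0.87 (SE 0.110), with 54.7% of the n.t. level remaining. The difference on the log2 scale, with 0.5 CPM added, was -0.88 within replicate 1 and -0.86 within replicates 2 and 3, whose library names carry another code than those of replicate 1.

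CCND1, the D-type cyclin best known as a target of growth factor signaling, was the least abundant of the 3 in n.t. cells. It was at 66.9, 70.2 and 70.7 CPM in n.t. replicates 1, 2 and 3 and at 9.76, 9.09 and 8.34 CPM in the treated ones. No treated library came near an n.t. library. The log2 fold change was -2.94 (SE 0.0806), which leaves 13.0% of the n.t. level and ranks 251 of the 13209 genes from the most negative.

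The summed D-type cyclin level fell from 319 ± 22.6 to 114 ± 9.74 RPKM (SD, n = 3), from 345, 304 and 308 RPKM in n.t. replicates 1, 2 and 3 to 125, 108 and 109 RPKM. The 3 genes did not lose in proportion. CCND3 gave 47.9% ± 3.16 of the sum in n.t. cells and 73.4% ± 2.18 in treated cells, and CCND2 gave 47.0% ± 2.84 and 24.7% ± 2.14 (SD, n = 3). The part of CCND1 went from 5.07% to 1.85%. With the length of all annotated exons in place of the RefSeq-linked exons, CCND3 gave 36.2% and 63.1%. Its level relative to CCND2 in n.t. cells thus depends on the length. The direction of the shift cannot, because the length scales a gene alike in both groups and CCND3 lost least.

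**Figure D3:**
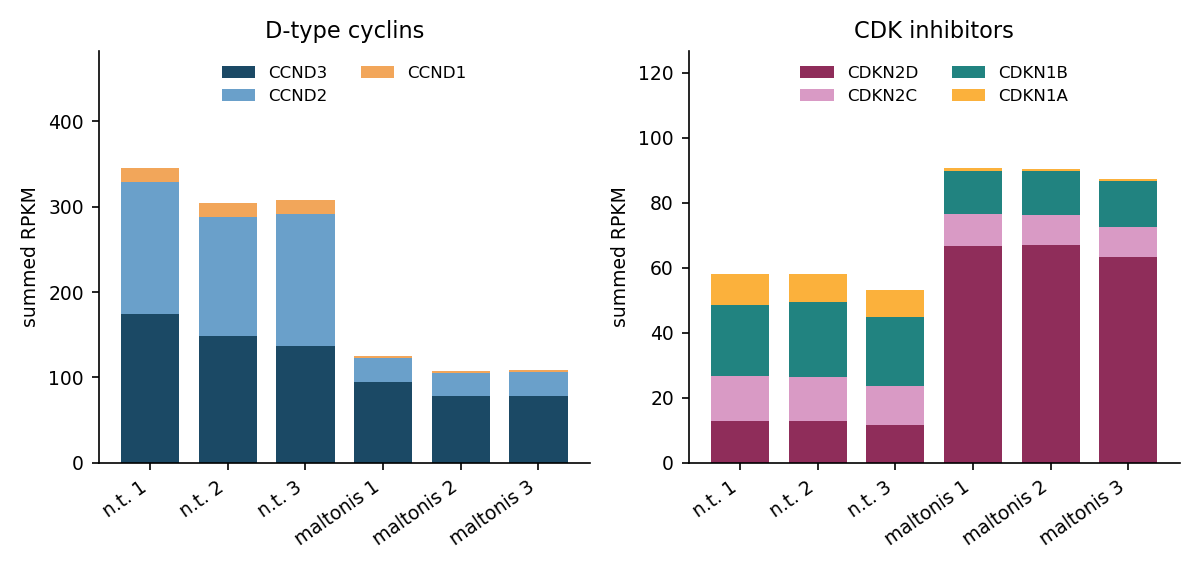
Summed RPKM of the D-type cyclins (left) and of the 4 CDK inhibitors (right) in each n.t. and maltonis-treated library, with each bar divided by gene. The D-type cyclin bars shrink from between 304 and 345 to between 108 and 125 RPKM, and the inhibitor bars grow from between 53.2 and 58.1 to between 87.2 and 90.5 RPKM as CDKN2D fills most of them.

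The summed RPKM of the 4 inhibitors rose from 56.4 ± 2.81 to 89.4 ± 1.89 (SD, n = 3), although 3 of the 4 were lower after treatment. CDKN2D gave 22.0% of this sum in n.t. cells and 73.3% in treated cells, CDKN1B 39.1% and 15.3%, CDKN2C 23.2% and 10.6%, and CDKN1A 15.6% and 0.765%. The ratio of inhibitor RNA to D-type cyclin RNA went from 0.177 ± 0.0118 to 0.789 ± 0.0591, and from 0.138 to 0.210 when CDKN2D was left out. With all annotated exons as length the ratio went from 0.211 to 1.12. These are ratios of RNA and not of protein.

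CDK6, the kinase of D-type cyclins that is prominent in hematopoietic cells, was at 137, 142 and 151 CPM in n.t. replicates 1, 2 and 3 and at 65.3, 68.5 and 65.4 CPM in the treated ones. The treated libraries all lay well under the n.t. libraries. Its log2 fold change was -1.11 (SE 0.0611), which leaves 46.4% of the n.t. level. Its long transcript makes CDK6 a gene of modest level per length, at 12.2 ± 0.599 RPKM before and 5.66 ± 0.153 RPKM after treatment (SD, n = 3). CDK4, its close relative, was at 157 and 136 RPKM, so that CDK6 gave 7.20% and 3.99% of the summed RNA of both kinases. The ratio of INK4 RNA to the sum of CDK4 and CDK6 RNA rose from 0.151 ± 0.00843 to 0.528 ± 0.00801 (SD, n = 3).

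The E-type cyclins, which activate CDK2 late in G1, changed least. CCNE1 was at 16.6, 14.1 and 14.4 CPM in n.t. replicates 1, 2 and 3 and at 11.9, 12.3 and 13.2 CPM in the treated ones. The highest treated value lay just under the lowest n.t. value, and replicate 1 was the highest n.t. and the lowest treated library. With total counts as scaling the CCNE1 groups overlapped, at 6.93 ± 0.691 RPKM in n.t. and 6.24 ± 0.325 RPKM in treated cells (SD, n = 3). The log2 fold change was -0.26 (SE 0.0962), and CCNE1 was the member that did not pass the threshold. Within replicate 1 the difference was -0.46 and within replicates 2 and 3 it was -0.15, on the log2 scale with 0.5 CPM added.

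CCNE2 was at 24.1, 25.9 and 25.1 CPM in n.t. replicates 1, 2 and 3 and at 30.6, 33.8 and 35.2 CPM in the treated ones. Each treated library lay above each n.t. library. The log2 fold change was 0.41 (SE 0.0774), and it was 0.37 without maltonis-treated replicate 2 and 0.34 without maltonis-treated replicate 3, when CCNE2 no longer passed the threshold. CCNE2 overlaps INTS8 and NDUFAF6 (listed as C8orf38) in the RefSeq annotation of GRCh38.p14, and both were lower after treatment, with log2 fold changes of -0.75 (SE 0.0678) and -0.72 (SE 0.0806). Whether the counting used the strand is not given in the sources used here, so how the overlap affected the CCNE2 counts is not known. The summed E-type cyclin level was 16.4 ± 0.358 RPKM in n.t. and 18.2 ± 1.19 RPKM in treated cells (SD, n = 3).

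Compared per length, CCND3 (153 ± 19.4 RPKM) and CCND2 (150 ± 8.80 RPKM) stood highest in n.t. cells, and their libraries overlapped. CDKN1B at 22.1 ± 1.01 RPKM and CCND1 at 16.1 ± 0.483 RPKM followed, each apart from its neighbors. CDKN2C, CDKN2D and CDK6 lay between 12.2 and 13.1 RPKM and overlapped in order, as did CCNE2 at 9.18 ± 0.329 and CDKN1A at 8.80 ± 0.595 RPKM, with CCNE1 lowest at 7.22 ± 0.653 RPKM. In maltonis-treated cells the order was CCND3 (83.7 ± 9.75 RPKM), CDKN2D (65.6 ± 2.07), CCND2 (28.0 ± 0.172), CDKN1B (13.7 ± 0.537), CCNE2 (12.2 ± 0.872), CDKN2C (9.47 ± 0.351), CCNE1 (5.99 ± 0.339), CDK6 (5.66 ± 0.153), CCND1 (2.10 ± 0.165) and CDKN1A (0.684 ± 0.176 RPKM). In that order the libraries of CCNE1 and CDK6 alone overlapped with a neighbor's. CDKN2D thus went from the sixth place to the second, and CDKN1A from the ninth to the last. With all annotated exons as length CCND2 stood above CCND3 in n.t. cells and CDKN2D above CCND3 in treated cells. CDKN2D then went from place 5 to place 1, and CDKN1A from place 8 to place 10. By that length CCNE2 was lowest in n.t. cells, and CDK6 stood above CDKN2C there and above CCNE1 in treated cells.

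The genes beside the members moved in either direction. On either side of CDKN1A, SRSF3 and CPNE5 were lower, with log2 fold changes of -0.84 (SE 0.108) and -1.37 (SE 0.349). CPNE5 was near the floor, with 5 to 18 counts per library, at 0.471 CPM in n.t. and 0.195 CPM in treated cells. On either side of CDKN2D, KRI1 was lower at -1.09 (SE 0.0568) and SLC44A2 overlapped between groups at 0.14 (SE 0.192). Beside CDKN1B, GPR19 was higher at 3.39 (SE 0.137) and APOLD1 at 0.76 (SE 0.113), against the direction of CDKN1B. The nearest tested genes of CCND2, PARP11 and TIGAR (listed as C12orf5), were also higher at 0.88 (SE 0.122) and 1.08 (SE 0.116). SAMD9, next to CDK6, was higher at 1.87 (SE 0.0642), and URI1, next to CCNE1, was lower at -0.73 (SE 0.0687). The groups overlapped for the genes on their other sides, FAM133B at -0.78 (SE 0.276) and C19orf12 at 0.26 (SE 0.118). CCND1 lay between TPCN2 at -0.30 (SE 0.0924), which did not pass the threshold, and LTO1 (listed as ORAOV1), higher at 0.45 (SE 0.0770). CDKN2C lay between FAF1 at -0.26 (SE 0.0515) and RNF11 at -0.35 (SE 0.0742), both lower. CCND3 had TAF8, higher at 0.96 (SE 0.0569), on one side, and BYSL at -0.19 (SE 0.0669), not past the threshold, on the other. Neighbors were found by their order in RefSeq, since the counts were made on another build, and the antisense or overlapping RNAs CCND2-AS1, CDK6-AS1 and DINOL were not among the symbols analysed here.

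The other genes of the pathway were counted in lists, which were also chosen with earlier results of the same contrast known. Their counts, medians and p-values are therefore a description and no independent support. The p-values are those of the quasi-likelihood test of edgeR, adjusted over all 13209 genes after Benjamini and Hochberg. For comparison, 31.9% of all genes were called higher and 32.1% lower. Of 8 partner kinases and activators tested, 5 were lower and 2 higher, with a median log2 fold change of -0.27. MNAT1, the assembly factor of the CDK-activating kinase, fell from 41.2 ± 1.80 to 3.79 ± 0.577 CPM (log2 fold change -3.46, SE 0.110, adjusted p = 4.78e-08), while its kinase CDK7 and cyclin CCNH rose by 0.79 and 0.45 on the log2 scale (adjusted p = 1.39e-05 and 0.000113). CDC25A, the phosphatase that activates CDK2, fell from 200 to 116 CPM (log2 fold change -0.79, adjusted p = 2.49e-06). CDK4 fell from 327 ± 12.4 to 283 ± 5.61 CPM (log2 fold change -0.21, adjusted p = 0.00766), a call that was lost with total-count scaling at -0.09, with upper-quartile scaling at -0.12 and with the likelihood ratio test. It was also lost without n.t. replicate 2 and without maltonis-treated replicates 2 or 3, and leaving out each library gave between -0.24 and -0.18. CDK2 was at 143 ± 6.56 and 129 ± 0.819 CPM (log2 fold change -0.14) and did not pass (adjusted p = 0.0441). Of the other CDK inhibitors, CDKN1C, which encodes p57, fell from 3.73, 3.45 and 2.68 CPM in n.t. replicates 1, 2 and 3 to 1.19, 1.43 and 1.35 CPM (log2 fold change -1.28, adjusted p = 0.000201), and CDKN2A and CDKN2B had 0 counts in every library, which allows at most 0.0828 to 0.160 CPM.

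Among 16 tested genes of the pocket proteins, E2F and their partners, 10 were lower and 3 higher, with a median of -0.45. RB1, which encodes the retinoblastoma protein, rose from 98.2 ± 6.12 to 173 ± 8.32 CPM (log2 fold change 0.81, SE 0.0674, adjusted p = 7.47e-06). The other higher genes, LIN37 and LIN52, rose by 2.06 and 0.86 on the log2 scale (adjusted p = 1.06e-06 and 3.24e-05). E2F5 and E2F2 fell by 1.61 and 1.41 on the log2 scale (adjusted p = 1.57e-06 and 1.04e-06).

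Of 18 genes for turnover of the CDK inhibitors and G1 cyclins, 9 were lower and 2 higher, with a median of -0.29. SKP2, the F-box protein that targets p27 for degradation, fell from 165 ± 3.43 to 74.9 ± 3.47 CPM (log2 fold change -1.14, adjusted p = 4.73e-07). CUL1, the scaffold of the same ligase, fell from 196 to 80.9 CPM (log2 fold change -1.27, adjusted p = 5.71e-07). CUL3, a scaffold of other ligases, and USP37, a deubiquitinase, rose by 0.30 and 0.49 on the log2 scale (adjusted p = 0.000518 and 6.55e-05).

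Of 24 S phase genes, 8 were lower and 2 higher, and the median was -0.13. CDT1, a replication licensing factor, rose from 191 ± 13.4 to 404 ± 31.8 CPM (log2 fold change 1.08, adjusted p = 3.42e-06) and RRM1, a ribonucleotide reductase subunit, by 0.49 (adjusted p = 5.82e-05). GINS1 and GINS2, subunits of the replicative helicase, fell by 0.63 and 0.59 on the log2 scale (adjusted p = 1.57e-05 and 2.45e-05). With total-count scaling 6 of the S phase genes were called higher.

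Of 23 G2/M genes, 8 were higher and 5 lower, with a median of 0.16. The share called higher, 34.8%, was near the 31.9% of all genes. UBE2C and CDC20, which act with the anaphase-promoting complex, rose by 1.41 and 0.80 on the log2 scale (adjusted p = 2.17e-06 and 3.55e-06). PLK1, a mitotic kinase, was at 81.0, 134 and 130 CPM in n.t. replicates 1, 2 and 3 and at 41.9, 38.7 and 37.9 CPM in the treated ones (log2 fold change -1.55, adjusted p = 4.96e-05). MYBL2 was at 216, 385 and 365 CPM and at 188, 172 and 156 CPM (log2 fold change -0.90, adjusted p = 0.00252). N.t. replicate 1 was the lowest n.t. library for both genes, and the MYBL2 call was lost without n.t. replicate 2 and without each maltonis-treated replicate in turn. Leaving out each library gave between -1.13 and -0.76. Without n.t. replicate 2, 3 of the G2/M genes were called lower.

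Of 20 transcription factors linked to the members, 11 were lower and 2 higher, with a median of -0.76. MYC fell from 660 ± 57.8 to 185 ± 6.64 CPM (log2 fold change -1.84, SE 0.0763, adjusted p = 1.66e-07) and JUN by 2.04 on the log2 scale (adjusted p = 7.60e-07). KLF4 rose from 9.87 ± 0.447 to 15.4 ± 0.832 CPM (log2 fold change 0.64, adjusted p = 0.000159). ZBTB17, which encodes the MYC partner MIZ1, was at 34.9 ± 1.41 and 41.9 ± 2.57 CPM (log2 fold change 0.26, adjusted p = 0.00975), and its call was lost whichever of the 6 libraries was left out, at between 0.20 and 0.28. Of 24 other cyclins and CDKs, 8 were lower and 6 higher, with a median of -0.11. CDK5 and CCNY fell by 2.28 and 1.13 on the log2 scale (adjusted p = 6.84e-07 and 1.24e-06), and CDK18 and CCNG2 rose by 2.23 and 1.79 (adjusted p = 3.41e-05 and 4.06e-06). CDK18 was low, with 7 to 57 counts per library, at 0.365 CPM in n.t. and 1.74 CPM in treated cells.

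**Figure D4:**
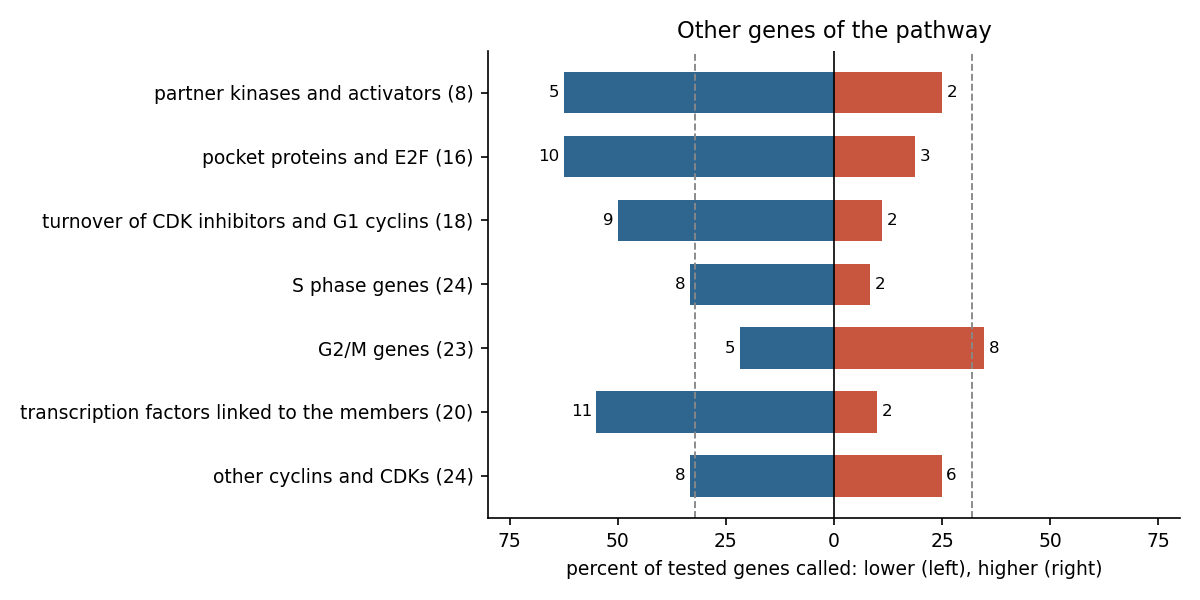
Percent of the tested genes called, in each list described in the text with at least 8 tested genes, as lower (blue, left) or higher (red, right) after maltonis, with the number of genes called at the end of each bar, the number tested in brackets, and dashed lines at 32.1% and 31.9%, the shares of all genes tested. The lists were chosen with earlier results of the same contrast known. The bars show 5 of 8 partner kinases and activators and 10 of 16 pocket protein and E2F genes called lower. For the G2/M genes 8 of 23 were called higher, a share (34.8%) near that of all genes.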

How the data were processed

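RNA from NB4 cells was extracted with an RNeasy kit and sequenced from stranded total RNA libraries. The authors deposited 1 table of HTSeq counts per library, whole numbers of reads per gene symbol without normalization, and the submitters' processing notes name TopHat, Bowtie2 and hg19. The annotation and the strand setting of the counting are not given in the sources used here.

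The members and all gene lists were chosen with earlier results of these data known. The counts of all 6 libraries were fitted with edgeR 4.0.16 in R 4.3.3, after TMM scaling and filterByExpr and with group as the only term. Its quasi-likelihood test was followed by Benjamini-Hochberg adjustment over 13209 genes. A gene was called at an FDR under 0.01, the study's threshold, and its size limit is a 2.5-fold change. The study's further limit on RPKM was not applied. A called gene is written as rising or falling. CPM used the TMM factors, and RPKM used the summed length of RefSeq-linked exons in GENCODE 29, found for 19859 symbols. Older symbols were matched through RefSeq synonyms. Levels are mean ± SD. Replicates of a group differed by more than sampling noise (chi-square divided by its degrees of freedom, 4.15 to 33.1), so none was the same library deposited again, which says nothing on whether they came from separate cultures.

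Named genes are all members, the genes next to or overlapping them, MYC, RB1, CDK2 and CDK4, and from each list up to 2 higher and 2 lower genes of largest change among called genes without overlap. Some genes and a list that this rule covers are not reported here. Replicate numbers come from the sample titles. Deviations from the group means of log2(CPM + 1) correlated between same-numbered libraries at 0.458, 0.170 and 0.248, but also between replicates 2 and 3 at 0.286 and 0.250, and replicate 1 shared no positive value with other numbers. For replicates 2 and 3 the correlations thus did not favor the same number. The main fit did not use the numbers, and the replicate block alone took them to pair the libraries. Alternatives covered the scaling, the test (likelihood ratio test of edgeR, or DESeq2 1.42.0), the filter, the replicate block, replicates 2 and 3 alone, each library left out, and the length. On simulated counts for 13060 genes, of which 198 were changed, the test recovered 98 of 100 genes changed 4-fold and 78 of 98 changed 2-fold. In the data themselves 64.0% of genes were called. The simulation held far fewer changed genes, so it cannot show how the test performs at that extent of change.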

Additional observations from a re-analysis of the deposited data

How the results depend on the processing

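No log2 fold change of a member or of another named gene of the lists changed sign under the alternatives. All 7 members called lower kept that call under the 14 alternatives of scaling, test, filter, block and libraries, and CDKN2D stayed higher, between 2.34 and 2.52. CDKN1A lay between -3.93 and -3.58, CCND2 between -2.48 and -2.30 and CCND3 between -0.99 and -0.75. CCNE1 stayed outside the threshold, between -0.33 and -0.14. Leaving out each library in turn gave 1 to 2 members called higher, and CCNE2 between 0.34 and 0.44, with the call lost at the lower end. By the same step 3 to 5 partner kinases and activators were lower, 3 to 5 G2/M genes lower, and 1 transcription factor higher. Total-count and upper-quartile scaling each gave 3 partner kinases and activators called lower, and 6 and 4 S phase genes called higher, while DESeq2 size factors and the absence of a filter each gave 1 transcription factor called higher. The median of all genes was 0.13 with total counts and 0.10 with upper quartile. The causes were not tested. With the replicate block 9222 genes were called in place of 8452, and no call of a member changed. RPKM values moved with the exon length used, by more than the spread of replicates in at least 1 group for all 10 members.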

Other observations

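In treated cells CDKN1A rested on 41 to 44 counts per library and had the largest coefficient of variation of the 10 genes, 25.7% against 6.76% in not treated cells. Of the 11 promyelocyte genes tested, 6 were called lower and 4 higher, beside 32.1% and 31.9% of all genes. ELANE, a granule protease, was near the floor in not treated cells, at 0.129 CPM, and at 17.4 CPM after maltonis. CTSG went from 109 to 553 CPM, MPO from 14608 to 7422 CPM, and MYB, a progenitor transcription factor, from 444 to 143 CPM. These changes were picked out after the values were seen.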
